A study of Mus musculus with 4 samples.

Results

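The 34 genes described here are 28 immediate-early or early-response genes and 6 heat-shock genes, taken from a list of names, out of 32285 genes measured in immune cells of mouse melanomas. All 34 were found in the data. The early-response genes were Fos, Fosb, Jun, Junb, Jund, Egr1, Egr2, Egr3, Atf3, Ier2, Ier3, Ier5, Dusp1, Dusp2, Dusp5, Zfp36, Nr4a1, Nr4a2, Nr4a3, Klf2, Klf4, Klf6, Btg2, Nfkbia, Nfkbiz, Gadd45b, Myc and Maff. The heat-shock genes were Hspa1a, Hspa1b, Hsp90aa1, Hspa8, Dnajb1 and Hsph1. The question was how both gene groups differed between the tumours, and whether the resistant tumour RTT stood apart in every cell type.

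Immediate-early genes are transcribed within minutes of a stimulus, without new protein synthesis, when kinase, calcium, cyclic AMP or NF-kB signalling acts on transcription factors already present in the cell. Many encode transcription factors and others encode the phosphatases, inhibitors and RNA-binding proteins that end the response, so their mRNAs are mostly short-lived. Heat-shock genes are driven by HSF1 when proteins misfold and encode chaperones that refold or hold them. In macrophages and monocytes the early genes follow sensing of microbes, cytokines and adhesion, and both gene groups are known to be induced while tissue is digested to single cells.

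Every tumour came from YUMM1.7 melanoma cells, whose alleles include Braf V600E and Cdkn2a-/-, that carry the model antigen ovalbumin, grown in Rag2-/- mice, a host without its own T and B cells. Each mouse received activated ovalbumin-specific OT-1 CD8+ T cells on day 7, and tumours were taken 72 h later, on day 10. NTT tumours (line Y1.7_NTT_3A6) were treatment-naive, and RTT tumours (Y1.7_RTT_2B12) came from cells selected for resistance to BRAF inhibition. RTT_ROSA26 (Y1.7_RTT_ROSA26) was the resistant line edited at the neutral ROSA26 locus, and RTT_PTGS12KO (Y1.7_RTT_PTGS12KO) was the resistant line without Ptgs1 and Ptgs2, which encode the cyclooxygenases COX1 and COX2 that make prostaglandin precursors. The edited lines were derived from clones with an inducible Cas9. RTT and RTT_ROSA26 thus both kept COX, and RTT_PTGS12KO against RTT_ROSA26 is the comparison that carries the knockout. The knockout was in the cancer cells whereas CD45+ cells were sorted, so the targeted genes could not be used to check the labels. All tumours were kept in collagenase and DNase at 37 °C for 1.5 h. The labels give 1 tumour for each condition and the study's figure legends describe tumours pooled within a condition, so n was 1 sample for each group in either case and no test between groups was possible.

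The deposited matrix held 33368 cells with the authors' cell type names, 6836 to 10296 cells and 69332486 to 146829369 unique molecular identifiers (UMIs, counted transcripts) for each sample. The 4 samples were tagged, pooled and loaded 3 times on the droplet chip, and the range over the 3 loads given here is technical only. Median mitochondrial content ranged from 1.53 to 2.82% of UMIs. In all, 98 barcodes were found in more than 1 cell, 75 of them across samples and 0 within a load. UMIs were summed over the cells of a type in a sample and scaled to 1000000 UMIs (CPM). Brackets after a ratio give the bounds reached when the 95% exact Poisson intervals of both sums are taken at their ends, which cover counting error only. Ratios are differences of log2(CPM + 1), and genes entered a comparison with a mean of at least 10 CPM over its samples. In these sums, fewer responding cells and less RNA in each cell cannot be told apart, except where single cells are described. Of 17 named types, 7 had at least 20 cells in each of 4 samples and 10 in each of the 3 resistant samples.

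Cell make-up differed strongly between tumours and decides where comparisons are well covered. The authors' monocyte types held 522 cells in RTT, 144 in RTT_ROSA26, 4015 in RTT_PTGS12KO and 6619 in NTT, and the macrophage types pooled here held 6734, 5993, 5207 and 308 cells in the same order. The macrophage class pools TAM_C1q, TAM_Spp1, TAM_cycling, TAM_H2Ab1 and Ctsk_Macro, which took different shares of it in each tumour. The authors' type named Macro, with 99, 130, 96 and 21 cells in the same order, is not in this class and was kept apart. TAM_H2Ab1 gave 192 of the 308 macrophages in NTT and 63 of 6734 in RTT, TAM_C1q 12 and 3412, and TAM_cycling 873 cells in RTT and 1834 in RTT_ROSA26. In the macrophages all 6 macrophage markers were present, at a summed 15288 to 32354 CPM, against 301 to 1772 CPM for monocyte markers. In the monocytes all 5 monocyte markers were present at 3348 to 7618 CPM, but macrophage markers reached 14726 CPM in RTT, 8738 in RTT_ROSA26, 6101 in RTT_PTGS12KO and 5108 in NTT. Monocytes of RTT therefore carried the most macrophage marker RNA and the least monocyte marker RNA, whose part in the differences below was not tested. The type named Myofibrobl held stromal markers at 849 to 1411 CPM and macrophage markers at 1138 to 1235 CPM, so its name is used only as a label.

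Between both COX-proficient resistant tumours, macrophages of RTT held more mRNA of most members than those of RTT_ROSA26. Of 27 early-response genes with enough counts (Egr3 had too few), 25 were higher in RTT, with a median log2 ratio of 0.29 and medians of 0.31 to 0.33 within the 3 loads. The size depended on the type: the early median was 0.29 in TAM_C1q, 0.12 in TAM_cycling and 0.06 in TAM_Spp1, and weighting TAM_Spp1 and TAM_cycling equally gave 0.083, with Jun, Egr2, Dusp1, Nr4a1, Nr4a2 and Klf4 below 0. For heat-shock genes 5 of 6 were higher, with a median of 0.33 and 0.27 to 0.39 over loads. Of all 7061 genes compared, 38.2% were higher in RTT with a median of -0.06, and 1.3% differed 2-fold or more, a distance that 0 members reached. Scaling by the trimmed mean of M values (TMM) instead of total UMIs moved the share of all genes higher in RTT to 56.9%, with 26 of 27 early and 5 of 6 heat-shock members higher. Irf1, an interferon-induced transcription factor on a separate list of 33 other early-response genes, had the largest ratio there at 1.74, and 29 of those 33 were higher in RTT, with a median of 0.31. In contrast, only 6 of 23 further cytosolic and mitochondrial chaperones and 2 of 14 endoplasmic reticulum chaperones were higher, with medians of -0.25 and -0.20. Hsp90aa1 was lower in RTT as well, and the lists were not tested against each other.

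**Figure D1:**
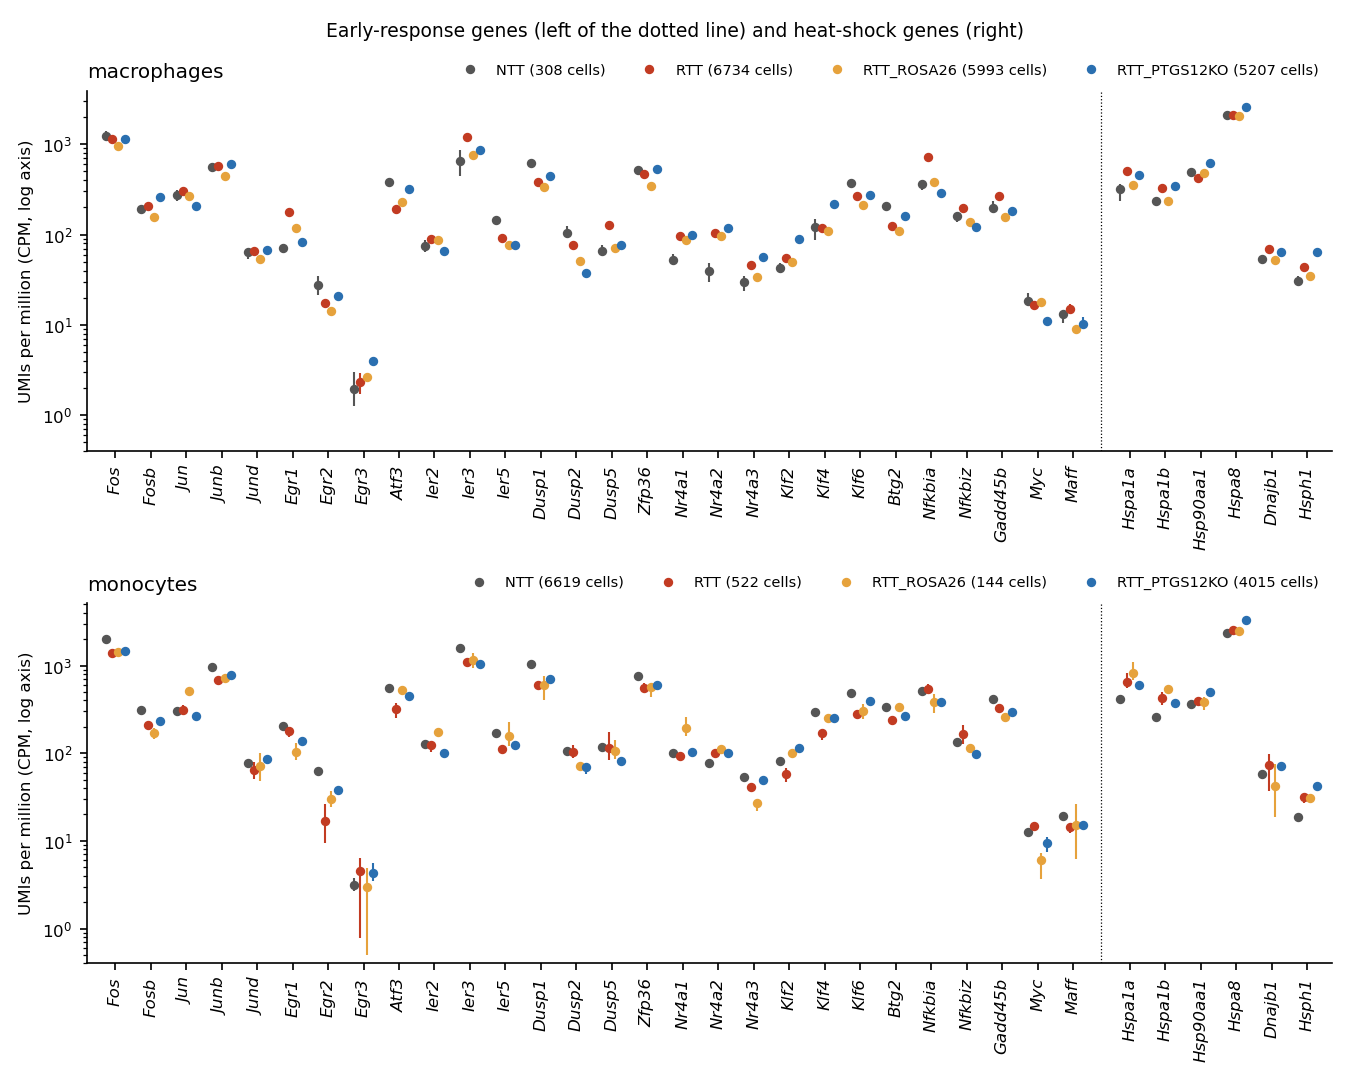
Level of each member in CPM (log axis) in macrophages (top) and monocytes (bottom) of the 4 samples. Points are the sums over all cells and lines span the 3 loads of the same sample. Nfkbia, Egr1, Dusp5 and Ier3 are highest in RTT among macrophages, while most early genes are highest in NTT among monocytes and Hspa8 is highest in RTT_PTGS12KO in both.

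Of the NF-kB feedback and stress genes, 4 were highest in RTT macrophages. Nfkbia, which encodes the inhibitor IκBα and is itself an NF-kB target, measured 721 CPM in RTT, 382 in RTT_ROSA26, 291 in RTT_PTGS12KO and 359 in NTT in macrophages. RTT was far above the other tumours, and its ratio to RTT_ROSA26 was 0.92 (0.89 to 0.94). Nfkbiz, an atypical nuclear IκB that tunes NF-kB target genes, measured 198 CPM in RTT, 138 in RTT_ROSA26, 120.2 in RTT_PTGS12KO and 161 in NTT. Ier3, a short-lived survival factor induced by NF-kB, measured 1191 CPM in RTT, 768 in RTT_ROSA26, 856 in RTT_PTGS12KO and 649.6 in NTT, so RTT was again highest and NTT lowest in the pooled class. In TAM_H2Ab1, which held most NTT macrophages, Ier3 instead had overlapping intervals at 481 CPM in RTT and 509.7 in NTT. Gadd45b, a stress-induced signalling adaptor, measured 270.3 CPM in RTT, 155 in RTT_ROSA26, 183 in RTT_PTGS12KO and 199 in NTT, with a RTT to RTT_ROSA26 ratio of 0.79 (0.75 to 0.83). In these 4 genes the counting intervals of RTT overlapped no other sample in the pooled class.

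Nfkbia lies at chr12:55489410-55492647 on the minus strand and Ier3 at chr17:35821684-35822923 on the plus strand (mm10, GENCODE annotation of GRCm38). Their promoters, 150 bases before the start site from RefSeq on GRCm38.p6 at chr12:55492648-55492797 and chr17:35821563-35821712, are shown because both genes stood highest in RTT macrophages, a choice made after the values were seen. Capitals mark a match to the NF-kB motif, 5′ to 3′ on the gene's strand, which begins at position -29 in Nfkbia and -92 in Ier3, counted from the RefSeq start, which for Ier3 lies inside the GENCODE gene.
Nfkbia: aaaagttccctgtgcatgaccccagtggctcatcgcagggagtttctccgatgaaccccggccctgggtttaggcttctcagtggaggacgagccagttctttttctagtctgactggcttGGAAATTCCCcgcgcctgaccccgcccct
Ier3: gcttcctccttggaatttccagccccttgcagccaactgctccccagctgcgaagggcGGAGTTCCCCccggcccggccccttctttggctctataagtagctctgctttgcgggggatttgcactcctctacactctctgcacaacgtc
Of the 34 members 27 had a promoter window in this table. Searched on both strands over 300 bases, the NF-kB motif was found for 7 of 23 early-response genes (Fos, Fosb, Egr2, Ier3, Nr4a1, Nfkbia and Maff), for 2 of 4 heat-shock genes (Hspa1a and Hspa1b) and for 9.55% of all 27025 genes with a window. Other members were also highest in RTT macrophages. Of these, Maff and Hspa1a had the motif, whereas Jun, Gadd45b and Dusp5 had a window without it. The cyclic AMP response element TGACGTCA was found for Dusp1, Btg2 and Maff against 2.03% of genes. The serum response CArG motif was found for Egr2, Dusp5 and Zfp36 against 1.81%, and the AP-1 motif TGANTCA for 0 of 23 against 8.97%. A match describes letters only and is no evidence of binding.

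Among the zinc-finger and nuclear receptor factors, Egr1 behaved like the NF-kB feedback genes while others did not. Egr1, an early growth response factor downstream of ERK signalling, measured 180.0 CPM in RTT, 119 in RTT_ROSA26, 83.6 in RTT_PTGS12KO and 71.4 in NTT in macrophages. Its order of RTT, RTT_ROSA26, RTT_PTGS12KO and NTT had counting intervals apart at each step. Egr2, its relative linked to macrophage differentiation, measured 17.3 CPM in RTT, 14.4 in RTT_ROSA26, 20.9 in RTT_PTGS12KO and 27.3 in NTT, and was highest in NTT. Egr3 stayed under 10 CPM in every sample and was not compared. Nr4a1, Nr4a2 and Nr4a3, orphan nuclear receptors induced by cyclic AMP and antigen receptor signals, had their lowest value in NTT in the pooled class. For Nr4a2 the values were 104 CPM in RTT, 95.9 in RTT_ROSA26, 117 in RTT_PTGS12KO and 39.6 in NTT. Nr4a2 was thus higher in all 3 resistant tumours and differed little between RTT and RTT_ROSA26, at 0.12 (0.06 to 0.18). Nr4a1 measured 96.9 CPM in RTT, 88.0 in RTT_ROSA26, 99.5 in RTT_PTGS12KO and 52.7 in NTT. Nr4a3 measured 45.8 CPM in RTT, 33.5 in RTT_ROSA26, 56.1 in RTT_PTGS12KO and 30.0 in NTT, with NTT close to RTT_ROSA26. RTT_PTGS12KO was highest for all 3 receptors, although its interval for Nr4a1 overlapped that of RTT. Within TAM_H2Ab1, which held most NTT macrophages, the intervals of NTT and RTT overlapped for all 3 receptors. Nr4a1 measured 44.2 CPM in NTT and 60.1 in RTT there, and Nr4a3 20.9 and 26.6. The intervals of NTT and RTT_PTGS12KO overlapped there for Nr4a1 and were apart for Nr4a2 and Nr4a3.

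Of the AP-1 subunits and their partners, Fos, Jun, Junb and Jund differed less between samples than the genes above, whereas Atf3 spanned 2.03-fold. Fos measured 1157 CPM in RTT, 953 in RTT_ROSA26, 1147 in RTT_PTGS12KO and 1239 in NTT in macrophages, and RTT_ROSA26 was lowest. Fosb, a Fos relative, measured 207 CPM in RTT, 155 in RTT_ROSA26, 262 in RTT_PTGS12KO and 194 in NTT. Junb measured 569 CPM in RTT, 446 in RTT_ROSA26, 609 in RTT_PTGS12KO and 565 in NTT. Jund measured 65.3 CPM in RTT, 53.4 in RTT_ROSA26, 67.5 in RTT_PTGS12KO and 64.7 in NTT. Each of these 3 was lowest in RTT_ROSA26 and highest in RTT_PTGS12KO, with overlapping intervals of RTT_PTGS12KO, RTT and NTT for Jund. Jun went otherwise, at 304 CPM in RTT, 265 in RTT_ROSA26, 207 in RTT_PTGS12KO and 276 in NTT, lowest in the knockout tumour. Maff, a small Maf protein that pairs with other leucine-zipper factors, measured 15.2 CPM in RTT, 9.05 in RTT_ROSA26, 10.3 in RTT_PTGS12KO and 13.0 in NTT. Atf3, a stress-induced repressor of the same superfamily, measured 190.2 CPM in RTT, 230.2 in RTT_ROSA26, 321 in RTT_PTGS12KO and 387 in NTT, so RTT was lowest of 4 and its ratio to RTT_ROSA26 was -0.27 (-0.31 to -0.23). Atf3 and Myc, at -0.08 (-0.21 to 0.05) with bounds on either side of 0, were the only early genes of the 27 not higher in RTT than in RTT_ROSA26. Myc, a growth regulator, measured 16.8 CPM in RTT, 17.8 in RTT_ROSA26, 11.1 in RTT_PTGS12KO and 18.5 in NTT.

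Phosphatases and mRNA decay factors, which end the early response, did not move as a block. Dusp5, a nuclear ERK phosphatase, measured 128 CPM in RTT, 70.5 in RTT_ROSA26, 76.3 in RTT_PTGS12KO and 66.4 in NTT and was highest in RTT. Dusp2 measured 76.3 CPM in RTT, 51.5 in RTT_ROSA26, 37.7 in RTT_PTGS12KO and 105 in NTT, highest in NTT and lowest in the knockout tumour. Dusp1, which inactivates p38 and JNK, measured 385 CPM in RTT, 332 in RTT_ROSA26, 444 in RTT_PTGS12KO and 622 in NTT. Zfp36, the protein tristetraprolin that destabilises cytokine mRNAs, measured 469 CPM in RTT, 348 in RTT_ROSA26, 526 in RTT_PTGS12KO and 519 in NTT. Btg2, an antiproliferative adaptor to mRNA deadenylases, measured 125 CPM in RTT, 109.6 in RTT_ROSA26, 162 in RTT_PTGS12KO and 208 in NTT. Zfp36, Btg2 and Dusp1 were each lowest in RTT_ROSA26, and Btg2 and Dusp1 were highest in NTT by a wide margin. Ier5 measured 91.2 CPM in RTT, 76.5 in RTT_ROSA26, 76.2 in RTT_PTGS12KO and 144 in NTT, again highest in NTT, whereas Ier2 was at 66.3 to 89.5 CPM in all samples.

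Of the Krüppel-like factors, Klf4 and Klf2 separated the knockout tumour from the rest in the pooled macrophages. Over the 7 types with enough cells in all 4 samples, RTT_PTGS12KO was highest in 2 for Klf4 and in 3 for Klf2. In TAM_H2Ab1 the intervals of RTT and RTT_PTGS12KO overlapped for both genes. Klf4, which takes part in monocyte and macrophage polarisation, measured 118 CPM in RTT, 108 in RTT_ROSA26, 216 in RTT_PTGS12KO and 123 in NTT, and RTT_PTGS12KO lay 0.99 (0.94 to 1.03) above RTT_ROSA26. Klf2, which restrains inflammatory activation of myeloid cells, measured 54.5 CPM in RTT, 49.6 in RTT_ROSA26, 88.8 in RTT_PTGS12KO and 42.6 in NTT, with 0.83 (0.76 to 0.90) for the same ratio. Klf6 measured 268 CPM in RTT, 213 in RTT_ROSA26, 277 in RTT_PTGS12KO and 376 in NTT and was highest in NTT. In the knockout comparison of macrophages, 19 of 27 early genes were higher in RTT_PTGS12KO than in RTT_ROSA26, with a median of 0.27 and 0.23 to 0.31 over loads, against 34.8% of all genes (52.9% with TMM scaling, with 20 of 27). That median was 0.062 when averaged over cells and 0.13 with TAM_Spp1 and TAM_cycling weighted equally, and within types it was 0.45 in TAM_cycling, 0.17 in TAM_C1q and -0.18 in TAM_Spp1. No member reached a 2-fold difference, as 3.4% of all genes did. The genes lower in the knockout tumour were led by Myc at -0.63 (-0.78 to -0.49), Egr1 at -0.50 (-0.56 to -0.44), Dusp2 at -0.44 (-0.53 to -0.36) and Nfkbia at -0.39 (-0.42 to -0.36). All 6 heat-shock genes were higher in RTT_PTGS12KO, with either scaling, and had a median of 0.38 with 0.35 to 0.45 over loads.

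Set directly against the knockout tumour, RTT macrophages were not uniformly higher. Of 27 early genes 13 were higher in RTT, with a median of -0.04 and -0.02 to 0.02 over loads, where 49.2% of all genes were higher. Nfkbia at 1.30 (1.28 to 1.33), Egr1 at 1.10 (1.04 to 1.15) and Dusp2 at 1.00 (0.92 to 1.08) were 2-fold or more higher, against 4.12% of all genes past 2-fold in either direction. Klf4 at -0.87 (-0.91 to -0.82), Atf3 at -0.75 (-0.79 to -0.71) and Klf2 at -0.69 (-0.76 to -0.63) had the most negative ratios. Of the heat-shock genes 2 of 6 were higher in RTT and the median was -0.20. These ratios share samples with those of the previous comparisons and are not independent of them.

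Against the naive tumour the macrophage values rest on 308 NTT cells. There 16 of 27 early genes were higher in RTT, with a median of 0.09, and 50.4% of all genes were. Nr4a2 at 1.37 (1.13 to 1.63), Egr1 at 1.32 (1.14 to 1.51) and Nfkbia at 1.00 (0.92 to 1.09) were 2-fold or more higher and Atf3, at -1.02 (-1.11 to -0.93), was 2-fold lower, against 8.19% of all genes past that distance. Of the heat-shock genes 4 of 6 were higher, with a median of 0.41. Since 192 of the NTT cells were TAM_H2Ab1, the pooled ratios set different types side by side, and values within types are given here. In TAM_H2Ab1, with 63 RTT cells, the RTT to NTT medians were -0.10 for early and 0.10 for heat-shock genes, and in TAM_cycling -0.18 and -0.01. Nfkbia was at 0.40 (0.15 to 0.66) in TAM_H2Ab1 and 1.01 (0.83 to 1.19) in TAM_cycling. Nr4a2 was at 1.03 (-0.07 to 2.12) and 0.31 (-0.08 to 0.72), with bounds on either side of 0 in both. Egr1, at 0.99 (0.49 to 1.49) and 1.08 (0.71 to 1.48), and Atf3, at -0.91 (-1.21 to -0.62) and -0.88 (-1.07 to -0.68), kept their directions within both types.

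The heat-shock members did not share a single order of samples in macrophages. Hspa1a and Hspa1b encode the stress-inducible HSP70 and share part of their transcripts, so how the authors' counting divided reads from shared stretches is uncertain. Their transcripts of 2967 and 2803 bases shared 49.3 and 52.3% of their 90-base windows, and 0 windows in the last 500 bases, next to which this 3′ assay reads. In macrophages Hspa1a measured 502 CPM in RTT, 349.6 in RTT_ROSA26, 459 in RTT_PTGS12KO and 319 in NTT. Hspa1b measured 332 CPM in RTT, 237 in RTT_ROSA26, 349 in RTT_PTGS12KO and 238 in NTT. RTT and RTT_PTGS12KO were above the other tumours for both copies. Hspa8, the constitutive HSC70, measured 2086 CPM in RTT, 2036 in RTT_ROSA26, 2607 in RTT_PTGS12KO and 2107 in NTT, which placed the knockout tumour apart and left RTT within 0.04 of RTT_ROSA26 on the log2 scale. Hsp90aa1, the stress-responsive HSP90 isoform, measured 425 CPM in RTT, 480.0 in RTT_ROSA26, 623 in RTT_PTGS12KO and 487 in NTT, and was the heat-shock gene not higher in RTT than in RTT_ROSA26. Dnajb1, the HSP40 cochaperone of HSP70, measured 68.6 CPM in RTT, 52.9 in RTT_ROSA26, 64.9 in RTT_PTGS12KO and 54.1 in NTT. Hsph1, the HSP110 nucleotide exchange factor, measured 43.6 CPM in RTT, 35.2 in RTT_ROSA26, 64.3 in RTT_PTGS12KO and 30.5 in NTT, with 0.85 (0.77 to 0.93) for RTT_PTGS12KO over RTT_ROSA26.

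Hspa1a lies at chr17:34969190-34972156 and Hspa1b at chr17:34956436-34959238, both on the minus strand. The 150 bases before each start site, at chr17:34972157-34972306 and chr17:34959239-34959388 (RefSeq, GRCm38.p6), are shown because both copies stood above the other tumours in RTT and RTT_PTGS12KO macrophages, a choice made after the values were seen, and they differ by 1 of these bases. Capitals mark the heat-shock element GAANNTTC at position -104 in both.
Hspa1a: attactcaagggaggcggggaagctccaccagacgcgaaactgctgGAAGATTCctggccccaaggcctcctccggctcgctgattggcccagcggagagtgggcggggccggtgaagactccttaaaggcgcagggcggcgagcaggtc
Hspa1b: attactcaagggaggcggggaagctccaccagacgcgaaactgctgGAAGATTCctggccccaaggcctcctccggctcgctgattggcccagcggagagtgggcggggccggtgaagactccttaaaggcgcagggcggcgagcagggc
The element was found, on either strand of the 300-base window, for 3 of 4 heat-shock genes with a window (Hspa1a, Hspa1b and Hsph1) and for 1 of 23 early genes (Jun), against 9.04% of all genes.

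In monocytes, early genes were mostly lower in the resistant tumour RTT than in the naive tumour. Of 27 early genes 22 were lower in RTT than in NTT, with a median of -0.41 and -0.50 to -0.31 over loads, where 44.6% of all genes were higher in RTT and the median of all genes was -0.03. Egr2 measured 16.7 CPM in RTT, 29.9 in RTT_ROSA26, 37.9 in RTT_PTGS12KO and 62.0 in NTT, a ratio of -1.83 (-2.19 to -1.48), and was the member past 2-fold, as were 2.95% of all genes. Klf4 measured 168 CPM in RTT, 251 in RTT_ROSA26, 254 in RTT_PTGS12KO and 299 in NTT. Klf6 measured 279 CPM in RTT, 305 in RTT_ROSA26, 396 in RTT_PTGS12KO and 488 in NTT. Both factors, like Egr2, had their highest level in NTT. Atf3 measured 318 CPM in RTT, 528 in RTT_ROSA26, 443 in RTT_PTGS12KO and 556 in NTT. Fos measured 1398 CPM in RTT, 1433 in RTT_ROSA26, 1473 in RTT_PTGS12KO and 1985 in NTT. For each of these 5 genes NTT was highest and RTT lowest, with overlapping intervals of RTT and RTT_ROSA26 for Egr2, Fos and Klf6 and of RTT_ROSA26 and NTT for Atf3. Dusp1, at 597 CPM in RTT, 592 in RTT_ROSA26, 699 in RTT_PTGS12KO and 1039 in NTT, was also highest in NTT, and its counts in RTT and RTT_ROSA26 were close. Nfkbia was an exception, at 535 CPM in RTT, 381 in RTT_ROSA26, 380.3 in RTT_PTGS12KO and 515 in NTT, and so was Nfkbiz at 166 CPM in RTT, 114 in RTT_ROSA26, 97.3 in RTT_PTGS12KO and 133 in NTT, both highest in RTT, with an interval that overlapped NTT for Nfkbia. Ier3 measured 1096 CPM in RTT, 1147 in RTT_ROSA26, 1045 in RTT_PTGS12KO and 1578 in NTT in monocytes, the reverse of its pooled macrophage order between NTT and RTT.

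All 6 heat-shock genes were higher in RTT monocytes than in NTT monocytes, with a median of 0.47 and 0.24 to 0.64 over loads, where 44.6% of all genes were higher. Median mitochondrial content of these monocytes was 2.42% of UMIs in RTT and 1.43% in NTT, and median ribosomal content 19.8% and 16.8%, whose part in the difference was not tested. Hspa1a measured 642 CPM in RTT, 812 in RTT_ROSA26, 594 in RTT_PTGS12KO and 419.8 in NTT, and Hspa1b 421 CPM in RTT, 537 in RTT_ROSA26, 377 in RTT_PTGS12KO and 261 in NTT, so RTT_ROSA26, with 144 cells, was highest. Infl_Mono made up 86 of those cells, against 138 of 522 in RTT, and within types the thinned mean of both genes together was close, at 8.18 UMIs in RTT_ROSA26 and 7.77 in RTT for Infl_Mono and 4.35 and 4.01 for Monocyte_1. Hsph1 measured 31.4 CPM in RTT, 30.9 in RTT_ROSA26, 42.2 in RTT_PTGS12KO and 18.9 in NTT, a ratio of 0.70 (0.39 to 1.01) for RTT over NTT. Hspa8 at 2554 CPM in RTT, 2448 in RTT_ROSA26, 3265 in RTT_PTGS12KO and 2345 in NTT and Hsp90aa1 at 396 CPM in RTT, 382 in RTT_ROSA26, 504 in RTT_PTGS12KO and 359.7 in NTT were highest in RTT_PTGS12KO. Within the authors' names, early genes had a median RTT to NTT ratio of -0.64 in Monocyte_1, with 25 of 27 lower where 43.4% of all genes were higher, and -0.02 in Infl_Mono, whereas the heat-shock medians were 0.36 and 0.63. The lower early level was thus seen in Monocyte_1, and the higher heat-shock level in both.

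RTT did not have the highest level of either gene group in every cell type. Averaged on the log2 scale, early genes were highest in RTT in 3 of 7 types (Infl_Mono, Macro and Neutro), in NTT in Monocyte_1 and TAM_Spp1, in RTT_PTGS12KO in TAM_cycling and in RTT_ROSA26 in cDC2, a type of conventional dendritic cell. Heat-shock genes were highest in RTT in Macro, TAM_Spp1 and cDC2, and in RTT_PTGS12KO in the other 4 types. Several of these placings turned with the measure. In Infl_Mono the summed early UMIs of a cell thinned to 4000 UMIs had a mean of 46.9 in NTT and 45.7 in RTT. For heat-shock genes the same mean in Macro was 19.8 in RTT_PTGS12KO and 17.1 in RTT, in TAM_Spp1 17.4 and 17.3, and in Neutro it was highest in NTT, at 10.9. RTT was the highest sample for 17 of 27 early genes in Neutro, against 19.6% of all genes, and for 16 of 27 in Macro, again against 19.6%. NTT rests on only 21 cells in Macro and 20 in TAM_Spp1. It was highest for 8 of 26 in Infl_Mono (27.9% of all genes), 7 of 27 in TAM_Spp1 (16.7%), 6 of 27 in TAM_cycling (20.6%), 6 of 28 in cDC2 (25.8%) and 1 of 27 in Monocyte_1 (20.5%). In Monocyte_1 NTT was highest for 20 of these 27, and for 1803 of all 6468 genes. Among these 7 types the share of early genes was furthest above the background in Neutro and Macro, then TAM_Spp1, was near it in Infl_Mono, TAM_cycling and cDC2, and was below it in Monocyte_1.

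**Figure D2:**
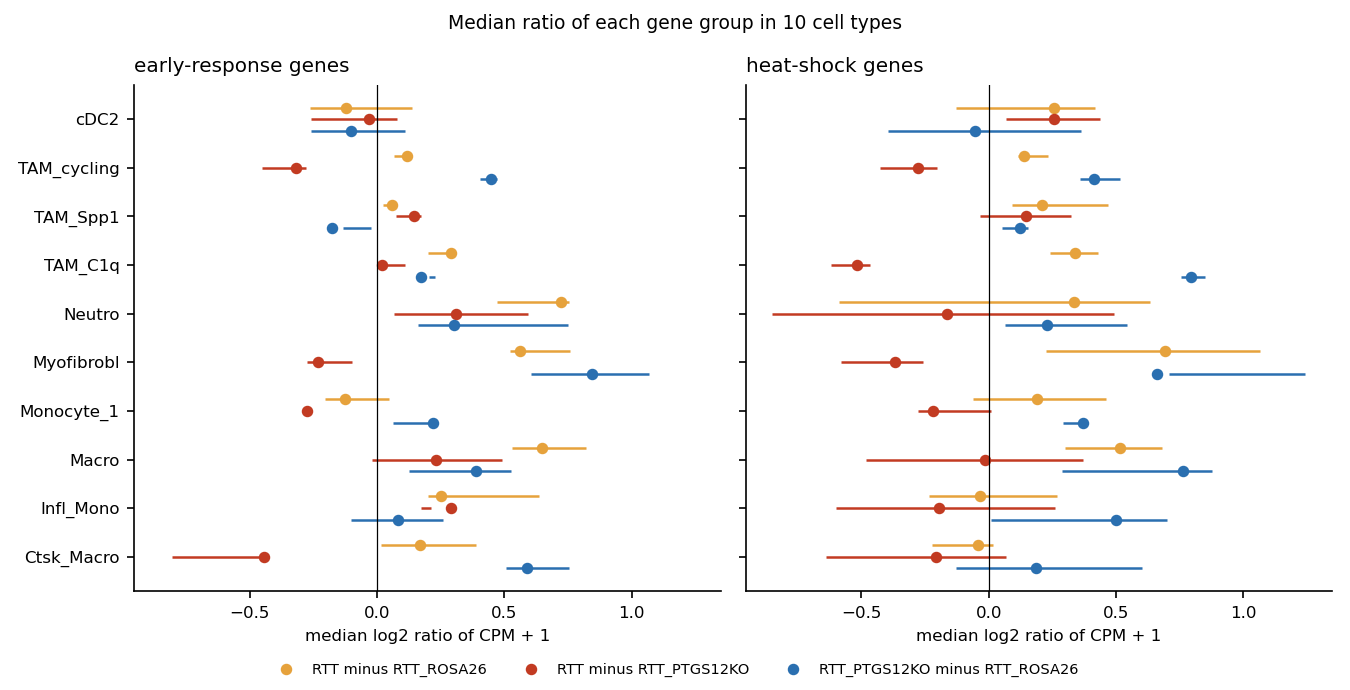
Median log2 ratio of CPM + 1 for the early-response genes (left) and heat-shock genes (right) in the 10 types with at least 20 cells in each resistant sample. Points are medians over members, lines span the 3 loads, and colours give the comparison. RTT lies above RTT_ROSA26 in 8 of 10 types for both gene groups, and RTT_PTGS12KO lies above RTT_ROSA26 in 8 of 10 for early and 9 of 10 for heat-shock genes.

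Across the 10 types of the resistant tumours, RTT_ROSA26 was mostly the lowest. The early median of RTT over RTT_ROSA26 was above 0 in 8 of 10 types and ran from -0.13 in Monocyte_1 to 0.72 in Neutro, and the heat-shock median was above 0 in 8 of 10, from -0.04 in Ctsk_Macro to 0.69 in Myofibrobl. Over RTT_PTGS12KO, RTT had an early median above 0 in 5 of 10 types (-0.44 in Ctsk_Macro to 0.31 in Neutro) and a heat-shock median above 0 in 2 of 10 (-0.52 in TAM_C1q to 0.26 in cDC2). RTT_PTGS12KO lay above RTT_ROSA26 in 8 of 10 types for early genes, from -0.18 in TAM_Spp1 to 0.85 in Myofibrobl, and in 9 of 10 for heat-shock genes, from -0.05 in cDC2 to 0.79 in TAM_C1q. Against NTT, over 7 types, RTT had early medians from -0.64 in Monocyte_1 to 0.63 in Macro, with 3 above 0, and heat-shock medians from -0.01 in TAM_cycling to 0.63 in Infl_Mono, with 6 above 0. The 2 gene groups therefore did not share their order of samples across types.

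Gene by gene, a few members carried a recurring RTT pattern. Of 32 members with enough counts in all 7 types, 8 were highest in RTT in at least 4 of 7, where 9.97% of all genes were. They were Nfkbia in 6 types, Egr1, Dusp5, Nfkbiz and Dnajb1 in 5, and Ier3, Gadd45b and Hspa1a in 4. Atf3, Klf6 and Hspa8 were highest in RTT in 0 types. RTT lay above RTT_ROSA26 in at least 9 of 10 types for 8 of 29 members, against 5.87% of all genes. Nfkbiz, Gadd45b and Dnajb1 did so in all 10, and Fosb, Egr1, Ier3, Dusp5 and Nfkbia in 9.

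**Figure D3:**
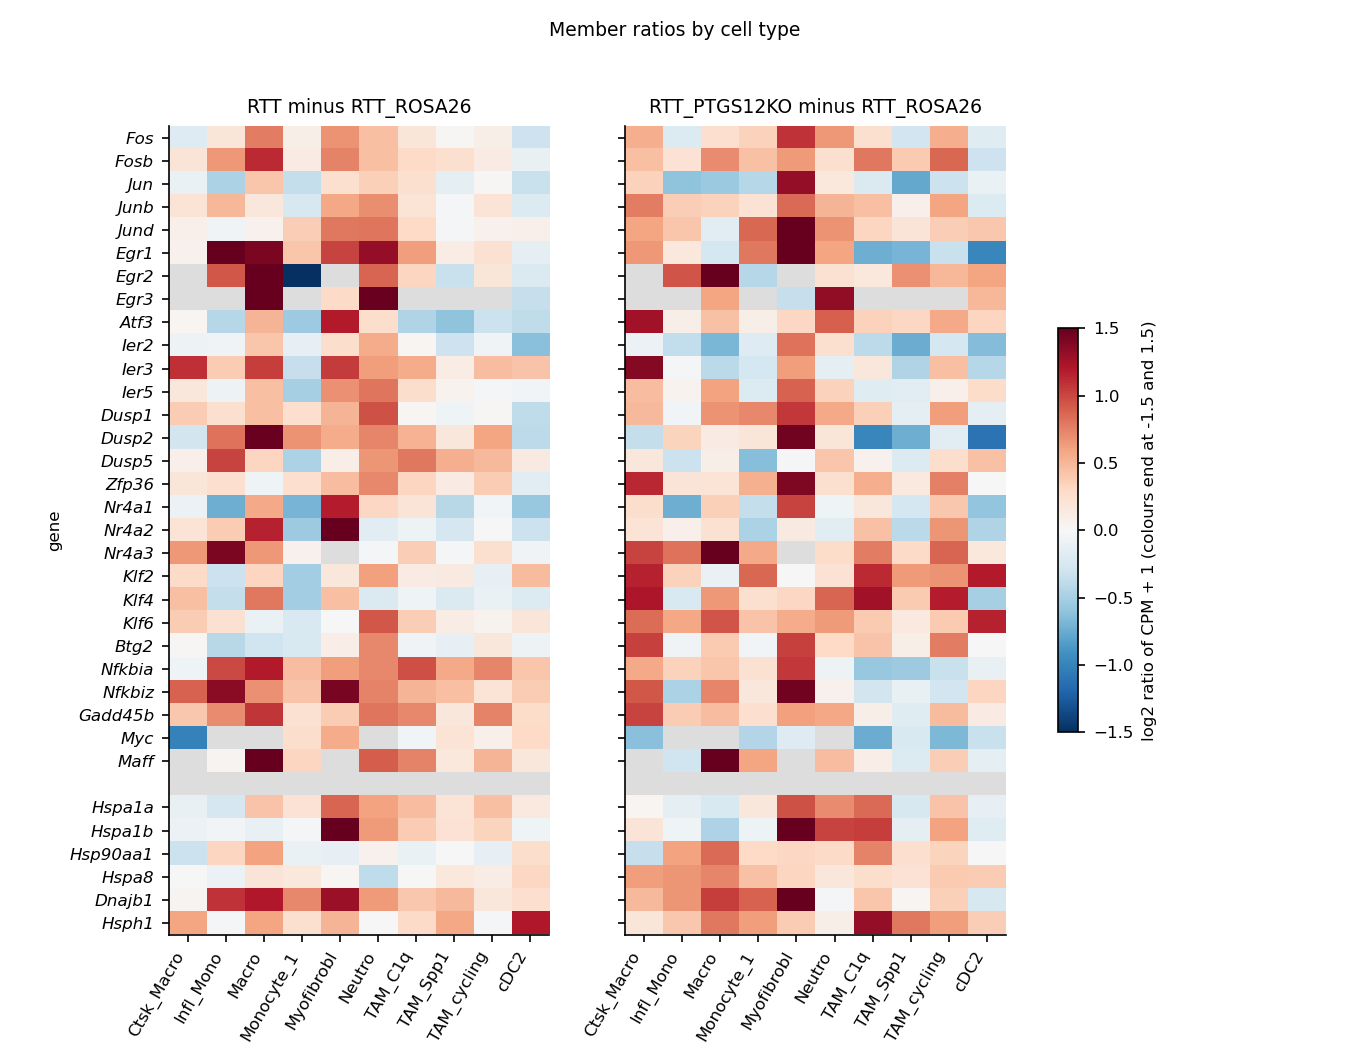
Log2 ratio of CPM + 1 for each member (rows, heat-shock genes below the gap) in 10 types (columns), for RTT over RTT_ROSA26 (left) and RTT_PTGS12KO over RTT_ROSA26 (right). Red is higher in the first-named sample, blue is lower, grey is under 10 CPM, and colours end at -1.5 and 1.5. Nfkbiz, Gadd45b and Dnajb1 are red in every column on the left, and Atf3, Klf6, Hspa8 and Hsph1 in every column on the right.

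Nfkbia shows how the pattern varied between types. In Infl_Mono it measured 870.0 CPM in RTT, 438 in RTT_ROSA26, 555 in RTT_PTGS12KO and 619.7 in NTT, and in TAM_cycling 519 CPM in RTT, 313 in RTT_ROSA26, 247 in RTT_PTGS12KO and 257 in NTT. In cDC2 it measured 544 CPM in RTT, 407 in RTT_ROSA26, 377 in RTT_PTGS12KO and 252 in NTT. In Monocyte_1 the order changed, with 418 CPM in RTT, 303 in RTT_ROSA26, 354 in RTT_PTGS12KO and 482 in NTT. In types with too few NTT cells, RTT_PTGS12KO was highest in Ctsk_Macro and Myofibrobl. Nfkbia measured 306 CPM in RTT, 321 in RTT_ROSA26 and 477 in RTT_PTGS12KO in Ctsk_Macro, where the intervals of RTT and RTT_ROSA26 overlapped. In Myofibrobl it measured 368, 237 and 496 CPM in the same order. Egr1 in Macro reached 1379 CPM in RTT, 517 in RTT_ROSA26, 432 in RTT_PTGS12KO and 243 in NTT, and RTT was far above the rest. Its values in Infl_Mono were 386 CPM in RTT, 120.0 in RTT_ROSA26, 134 in RTT_PTGS12KO and 192 in NTT, with RTT highest again. Over all 52 pairs of type and sample with at least 20 cells, Egr1 ranged from 40.6 CPM in NK cells of RTT_PTGS12KO to 2316 in neutrophils of RTT. Nfkbia ranged from 107 CPM in cDC1 of NTT to 3093 CPM in neutrophils of RTT. Both genes thus had their highest value in the same type and tumour.

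**Figure D4:**
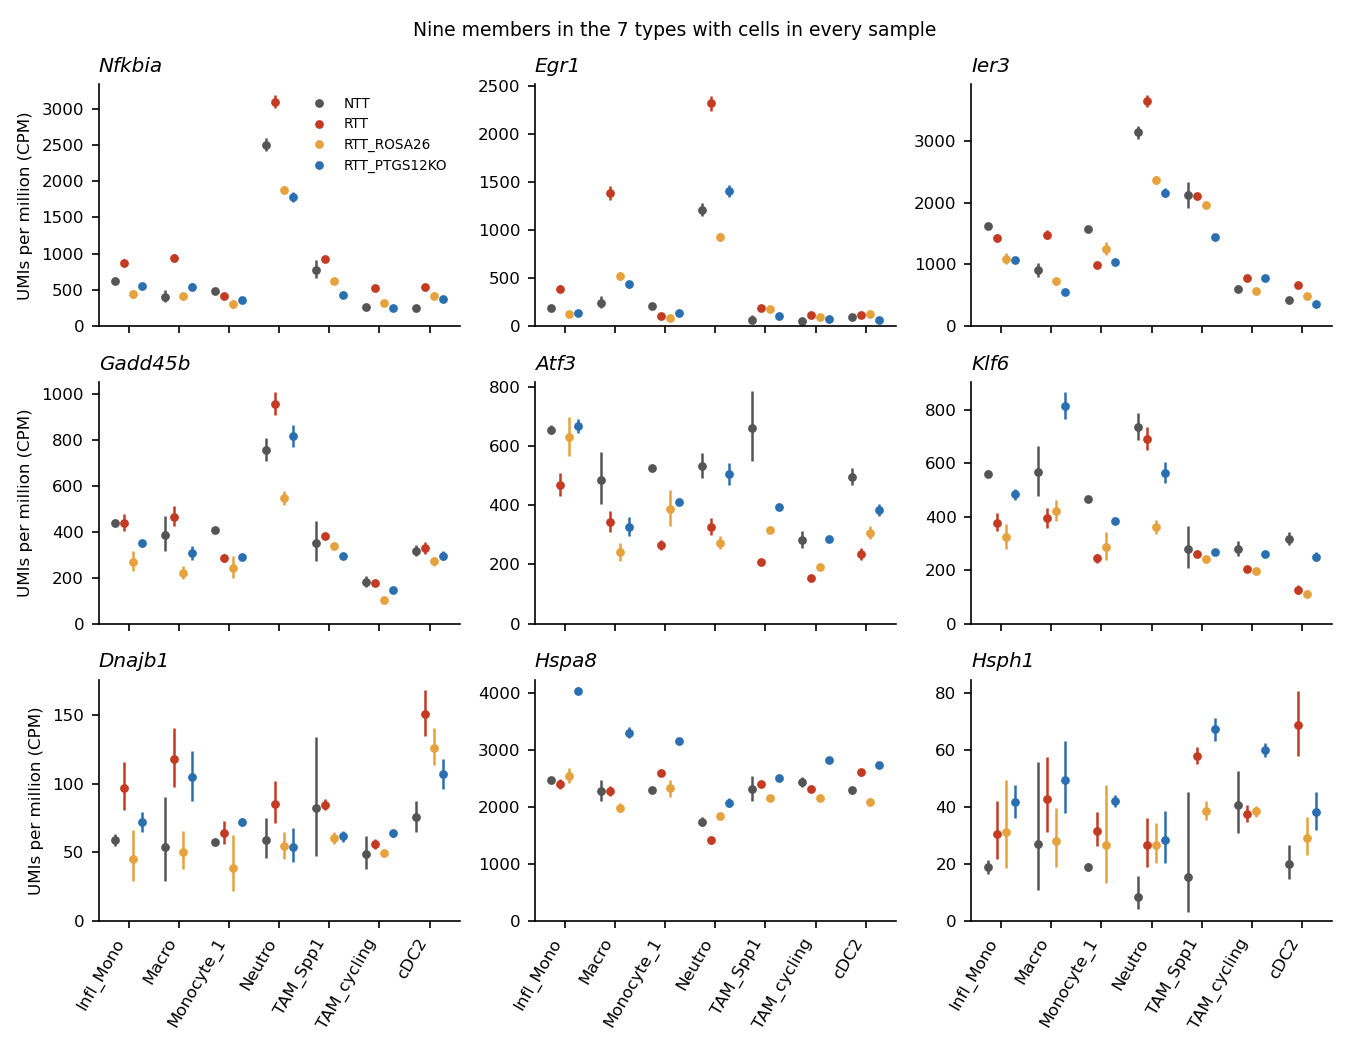
Level in CPM of 9 members in the 7 types with at least 20 cells in every sample, by tumour. Points are sums over cells and lines are 95% exact Poisson intervals, which cover counting error only. Nfkbia is highest in RTT in 6 of 7 types, Atf3 and Klf6 in 0 of 7, and Hspa8 is highest in RTT_PTGS12KO in 7 of 7.

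Several members also recurred in the knockout tumour. RTT_PTGS12KO lay above RTT_ROSA26 in at least 9 of 10 types for 11 of 29 members, against 7.57% of all genes. Atf3, Klf6, Hspa8 and Hsph1 did so in all 10, and Fosb, Junb, Jund, Zfp36, Klf2, Gadd45b and Hsp90aa1 in 9. Fosb and Gadd45b were also among those higher in RTT, and both counts share RTT_ROSA26. Hspa8 was the highest of 4 samples in the knockout tumour in 7 of 7 types, for example at 2404 CPM in RTT, 2549.6 in RTT_ROSA26, 4048 in RTT_PTGS12KO and 2473 in NTT in Infl_Mono. Klf6 was highest in NTT in 6 of 7 types and Atf3 and Ier5 in 5. Among all genes, RTT_PTGS12KO was the highest sample for 849 of 6581 in cDC2 up to 1620 of 7043 in Macro. NTT was highest for 1424 of 6542 genes in Neutro up to 2310 of 6396 in TAM_Spp1. How many of all genes recurred over types in these ways was not counted. In TAM_Spp1, Atf3 measured 209 CPM in RTT, 317 in RTT_ROSA26, 394 in RTT_PTGS12KO and 660.1 in NTT, although NTT there rests on 20 cells.

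The C1q-expressing macrophages named TAM_C1q, with 3412, 2247 and 1556 cells in RTT, RTT_ROSA26 and RTT_PTGS12KO, had the highest heat-shock median of RTT_PTGS12KO over RTT_ROSA26 among the 10 types. Hsph1 measured 40.6 CPM in RTT, 33.0 in RTT_ROSA26 and 83.4 in RTT_PTGS12KO, and RTT_PTGS12KO lay 1.31 (1.17 to 1.46) above RTT_ROSA26. Hspa1a measured 474 CPM in RTT, 343 in RTT_ROSA26 and 618 in RTT_PTGS12KO. Hspa1b measured 315 CPM in RTT, 241 in RTT_ROSA26 and 497 in RTT_PTGS12KO. Much of these sums came from few cells: the thinned median of both HSP70 genes together was 1 UMI in each of the 3 tumours and the top 10% of cells held 67.2% of their UMIs in RTT_PTGS12KO, 58.2% in RTT and 58.6% in RTT_ROSA26. Klf4 measured 90.9 CPM in RTT, 95.5 in RTT_ROSA26 and 231 in RTT_PTGS12KO. Klf2 measured 62.9 CPM in RTT, 57.5 in RTT_ROSA26 and 126 in RTT_PTGS12KO. All 6 heat-shock genes and both Krüppel-like factors were thus highest in the knockout tumour here, although Dnajb1, at 65.5 CPM in RTT, 49.4 in RTT_ROSA26 and 66.0 in RTT_PTGS12KO, had overlapping intervals in RTT and RTT_PTGS12KO. Nfkbia went the other way, at 754 CPM in RTT, 385 in RTT_ROSA26 and 259 in RTT_PTGS12KO, a RTT to RTT_PTGS12KO ratio of 1.54 (1.49 to 1.59), as did Egr1 at 216 CPM in RTT, 139 in RTT_ROSA26 and 83.6 in RTT_PTGS12KO and Dusp2 at 81.5 CPM in RTT, 56.5 in RTT_ROSA26 and 28.3 in RTT_PTGS12KO. NTT had 12 such cells and was not compared.

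Neutrophils, with a mean of 80.5 to 121 early UMIs in each 4000 of a cell, had the highest early level of the types and few cells, with 146 in RTT, 146 in RTT_ROSA26, 123 in RTT_PTGS12KO and 106 in NTT. Early genes were higher in RTT than in RTT_ROSA26 for 24 of 27 members and higher than in RTT_PTGS12KO for 22 of 27, where 37.1 and 49.7% of all genes were. Egr1 measured 2316 CPM in RTT, 928 in RTT_ROSA26, 1401 in RTT_PTGS12KO and 1210.1 in NTT, a ratio to RTT_ROSA26 of 1.32 (1.21 to 1.43). Dusp1 measured 3665 CPM in RTT, 1888 in RTT_ROSA26, 2791 in RTT_PTGS12KO and 2747 in NTT. Ier3 measured 3649 CPM in RTT, 2368 in RTT_ROSA26, 2159.8 in RTT_PTGS12KO and 3140.3 in NTT. RTT was highest for all 3 genes. Hspa8 was lowest in RTT, at 1419.9 CPM in RTT, 1848 in RTT_ROSA26, 2077 in RTT_PTGS12KO and 1742 in NTT. Neutrophil markers summed to 50748 CPM in RTT, 31890 in RTT_ROSA26, 40998 in RTT_PTGS12KO and 49279 in NTT. Macrophage markers in these cells summed to 17644, 18137, 6967 and 4762 CPM in the same order. Median ribosomal content was 5.98, 14.8, 9.28 and 12.0% of UMIs, median mitochondrial content was 3.13, 2.25, 1.90 and 1.17%, and 70, 50, 48 and 27 cells failed a filter of 1500 genes and 10% mitochondrial UMIs. RTT neutrophils thus had the lowest ribosomal and highest mitochondrial content, whose part in their early-gene level was not tested.

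Single cells thinned to 4000 UMIs each showed how the sums were spread over cells. Macrophages carried a median of 24 early UMIs in RTT, 18 in RTT_ROSA26, 24 in RTT_PTGS12KO and 25 in NTT, and 11, 11, 14 and 10 heat-shock UMIs. From the 10th to the 90th percentile, early UMIs spanned 7 to 48 in RTT_PTGS12KO, 4 to 53 in RTT_ROSA26 and 4 to 65 in RTT. RTT macrophages therefore had the same middle as those of the knockout tumour and a wider spread. Cells with under 4000 UMIs were left out, 96, 152, 48 and 7 macrophages in the same order. Without thinning, early genes made up a median of 0.607, 0.461, 0.604 and 0.583% of the UMIs of a macrophage. In monocytes the thinned early medians were 27, 30, 30 and 39 UMIs, with 27, 20, 208 and 618 cells left out, and unthinned medians were 0.726, 0.73, 0.764 and 0.98% of UMIs.

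**Figure D5:**
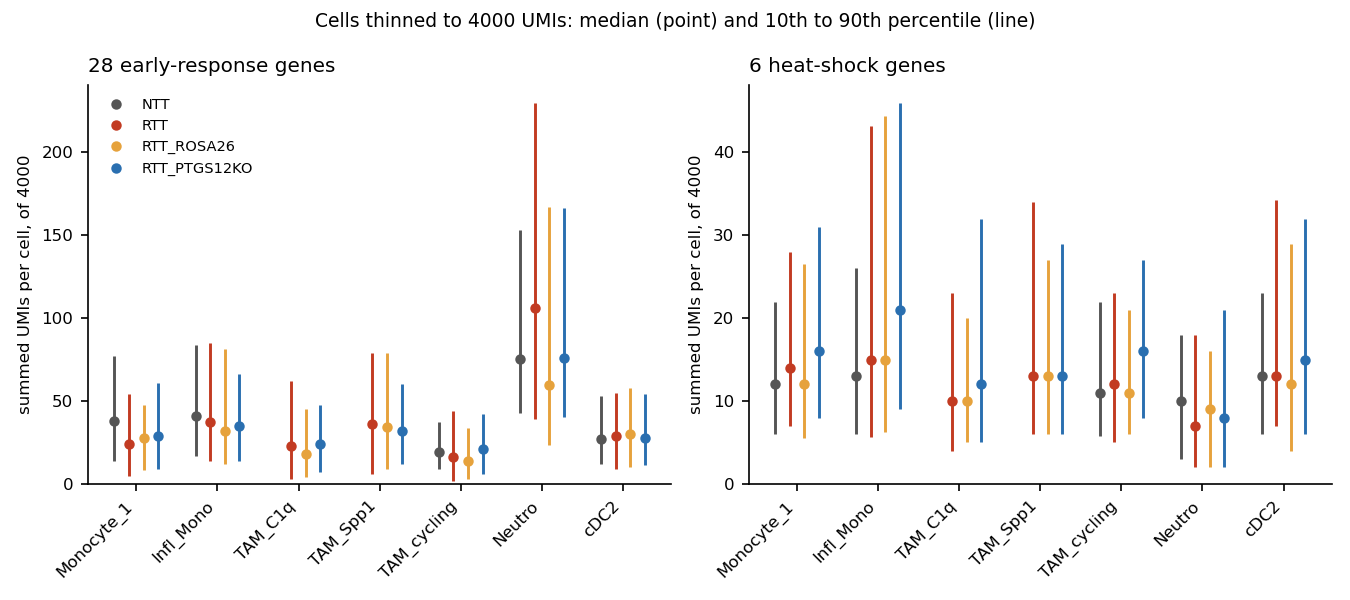
Summed UMIs of the 28 early-response genes (left) and the 6 heat-shock genes (right) in each cell thinned to 4000 UMIs, for 7 types and up to 4 tumours. Points are medians over cells and lines run from the 10th to the 90th percentile, which is spread between cells and not an error of a tumour. Neutrophils have the highest early medians, 106 in RTT and 59.5 in RTT_ROSA26.

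Most of the inducible HSP70 UMIs were concentrated in few cells, although more than 50% of macrophages held at least 1. With Hspa1a and Hspa1b summed, the 10% of macrophages with most UMIs held 57.9% of them in RTT, 56.5% in RTT_ROSA26, 63.3% in RTT_PTGS12KO and 61.8% in NTT, and 44.7, 45.9, 41.4 and 49.2% of macrophages had 0. Early UMIs were spread more evenly, with 28.7, 30.7, 23.6 and 25.3% in the top 10% of cells. Within macrophages early and heat-shock UMIs had Spearman correlations of 0.32 in RTT, 0.24 in RTT_ROSA26, 0.06 in RTT_PTGS12KO and 0.31 in NTT, and within neutrophils of -0.61, -0.42, -0.61 and -0.40. These describe cells of 1 sample each at a fixed depth (6638, 5841, 5159 and 301 macrophages and 123, 122, 107 and 100 neutrophils) and carry no test. The sign differed between both cell classes in all 4 tumours.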

How the data were processed

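CD45+ cells of 4 tumour samples were profiled by 10x Genomics 3′ single-cell RNA-seq with sample tags. The authors deposited 1 matrix of raw UMI counts with cell type and sample names for each cell. The submitters' processing notes name Cell Ranger, Seurat 4.3.0 and mm10, and the study's methods state filters on genes, mitochondrial and ribosomal reads for each cell. Whether doublets were removed beyond the sample tags is not given in the sources used here, and none were removed. All deposited cells and the authors' names were used.

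Counts were summed over each type and sample, divided by total UMIs and expressed as CPM, with 95% exact Poisson intervals and a pseudocount of 1 CPM for log2 ratios. Genes needed a mean of 10 CPM over the samples compared, and types 20 cells in each sample. Macrophages and monocytes pool the authors' names of those classes, except that the type named Macro was kept apart. TMM factors came from edgeR 4.0.16 (R 4.3.3), used for scaling only. The other steps used python 3.11.15, numpy 2.4.6, pandas 2.3.3, scipy 1.17.1 and matplotlib 3.10.9, and were tested on simulated data. With 1 sample for each group no test was made. Intervals cover counting error only. The genes named are the 34 members and the 3 highest and lowest of each comparison list. Members and lists were chosen with earlier results of these data known. Alternatives were TMM scaling, equal medians, means per cell, equal weight for cell type names, a pseudocount of 10 CPM, a stricter cell filter and a minimum of 50 cells. Equal weight covered only names with at least 20 cells in each of 4 samples. These were TAM_Spp1 and TAM_cycling for macrophages, and Monocyte_1 and Infl_Mono for monocytes. Replicate samples from a second experiment of the study were not analysed here.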

Additional observations from a re-analysis of the deposited data

Results flagged for a closer look

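Ier3 differed in opposite directions between RTT and NTT in both main cell classes. Its log2 ratio was -0.53 in monocytes and 0.87 in macrophages, each at least 0.5 from 0. The macrophage value sets a class that was mostly TAM_H2Ab1 in NTT against one that was mostly TAM_C1q and TAM_Spp1 in RTT. Within types the ratio was -0.08 (-0.31 to 0.14) in TAM_H2Ab1, 0.38 (0.26 to 0.51) in TAM_cycling and -0.003 (-0.16 to 0.15) in TAM_Spp1, so the pooled size was found in none of these 3. The difference between the classes was not tested, since each tumour gave 1 sample.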

How the results depend on the processing

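No paired analysis was possible because there was 1 sample for every group, and for the same reason no sample could be left out in turn. In macrophages, TMM scaling gave RTT to RTT_ROSA26 medians of 0.38 for early and 0.43 for heat-shock genes, and RTT_PTGS12KO to RTT_ROSA26 medians of 0.37 and 0.48. Making the medians of all genes equal gave 0.42 for heat-shock genes in the knockout comparison. Averaging over cells gave 0.23 for early genes in RTT over RTT_ROSA26, -0.25 for heat-shock genes in RTT over RTT_PTGS12KO, and 0.062 and 0.43 for early and heat-shock genes in RTT_PTGS12KO over RTT_ROSA26. Giving TAM_Spp1 and TAM_cycling equal weight, without TAM_C1q, gave early medians of 0.083 for RTT over RTT_ROSA26, -0.19 for RTT over RTT_PTGS12KO and 0.13 for RTT_PTGS12KO over RTT_ROSA26, and heat-shock medians of -0.067 and 0.27 for the last 2. With at least 50 cells for each sample, heat-shock genes were highest in RTT in 1 of 5 types.

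Some single members changed sign. With TAM_Spp1 and TAM_cycling weighted equally, without TAM_C1q, RTT over RTT_ROSA26 became -0.059 for Jun, -0.077 for Egr2, -0.020 for Dusp1, -0.23 for Nr4a1, -0.13 for Nr4a2 and -0.16 for Klf4. Hspa1b in RTT over RTT_PTGS12KO became 0.042 in the same way. With Monocyte_1 and Infl_Mono weighted equally, Egr1 in monocytes of RTT over NTT became 0.037. Averaged over cells, RTT over RTT_ROSA26 became -0.0012 for Nr4a1 and -0.10 for Nr4a2, and RTT_PTGS12KO over RTT_ROSA26 became -0.14 for Ier3, -0.0016 for Dusp5 and -0.014 for Nr4a2. Of 924 member ratios under alternatives 253 moved by more than their counting bounds, 13 reversed from bounds that excluded 0 and 31 changed sign, and of the 322 with a size of at least 0.5 as reported 0 did. The causes were not tested. Counting error limits Egr3, Myc and Maff most, and types with few cells.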

Other observations

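Neighbouring pathways in macrophages are given here as values, with ratios of RTT to RTT_ROSA26. Irf1, an interferon-induced transcription factor and early-response gene outside the 34, measured 96.8 CPM in RTT, 28.2 in RTT_ROSA26, 227 in RTT_PTGS12KO and 285 in NTT, so it was lowest in RTT_ROSA26 and low in RTT. Tnfaip3, the A20 enzyme that restrains NF-kB, measured 128 CPM in RTT, 65.3 in RTT_ROSA26, 72.4 in RTT_PTGS12KO and 95.7 in NTT, with the same highest sample as Nfkbia. Among other chaperones, Bag3, an HSP70 cochaperone induced by HSF1, had the highest RTT to RTT_ROSA26 ratio at 0.23, and Fkbp4, an HSP90 cochaperone, the lowest at -0.60, followed by the mitochondrial chaperonin Hspd1 at -0.47. In the endoplasmic reticulum list Dnajb9 was highest at 0.22 and Hyou1 lowest at -0.37. Of 5 integrated stress response genes 3 were higher in RTT, led by Ddit4 at 0.67, with a median of 0.08, where 38.2% of all genes were higher (56.9% with TMM scaling), and Atf4 was at -0.22. In RTT against NTT, where 44.6% of all genes were higher in RTT, monocytes had 26 of 33 other early-response genes lower, with a median of -0.32, and 13 of 14 endoplasmic reticulum chaperones higher, with a median of 0.30.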
